A study of Mus musculus with 6 samples.

Results

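Rod phototransduction is the cascade by which rods, the photoreceptors of dim light, turn the capture of light into an electrical signal. Among the 10 genes examined here, Gnat1, Gnb1, Gngt1, Pde6a, Pde6b, Pde6g, Cnga1 and Cngb1 encode parts that carry the signal from photopigment to membrane. The other members, Sag and Slc24a1, encode proteins that end the response or move calcium. All 10 were chosen by name as the rod components of the cascade, and every transcript cluster that carried 1 of these symbols alone was taken. A transcript cluster is a set of array probes that together cover the exons of 1 likely transcript. Each of the 10 genes had exactly 1 such cluster, and all 10 passed the filter on dim clusters, out of 17468 genes represented in the table.

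Light activates the photopigment, which activates the G protein transducin. Transducin relieves the inhibition of a phosphodiesterase that breaks down cyclic GMP, and the fall in cyclic GMP closes cation channels of the outer segment. Arrestin ends the signal, and an exchanger carries calcium out of the outer segment. Cones use the same steps with their own set of closely related proteins, so most rod genes have a named cone counterpart.

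The samples were mouse retinas (C57BL/6, both sexes mixed) explanted at postnatal day 0 and cultured for 7 days on floating filters. Knockout explants lacked Sall3, a Spalt family protein with zinc fingers that binds DNA, and wild-type explants carried the normal gene. Each genotype was represented by 3 arrays, and each array by RNA of 3 pooled retinas. The study is about cones and horizontal cells, as its title states, and the comparison made here asks what the rod cascade did in the same samples. Nothing in the labels tells whether the pools of a genotype were from different litters or cultures. The p-values therefore reflect the variation among these arrays alone, which may be technical. In whole retinas, fewer cells of a type and less RNA per cell cannot be told apart.

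Values are log2 signals after quantile normalization, and a change is the knockout mean less the wild-type mean on that scale. For arrays, their number limits the precision: 3 per genotype leave 4 residual degrees of freedom. Knockout 1 and wild-type 3 stood apart from the other arrays on the axis of largest variance, at -98.5 and 62.5 where the other 4 lay between 2.87 and 11.9. The targeted gene Sall3 had signals of 6.24, 6.05 and 6.13 in the 3 knockout arrays and of 6.21, 6.36 and 6.33 in the 3 wild-type arrays. Where its probes lie relative to the deleted part is not known, so this overlap does not check the genotype. The rod markers Nrl, Esrrb, Reep6 and Rom1 all lay above the filter of 3.70. Nr2e3 was not analysed here. The lens marker Crygb and the pigment epithelium marker Rpe65 lay below the filter. The other 4 of the 5 markers in each of these lists lay above it.

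Sequence upstream of the gene start was available for 7 members in a RefSeq table of build GRCm38.p6, as windows of 250 bases before the start. The 6-base motif TAATCC, the core recognised by the photoreceptor factor Crx, was searched on both strands, where its reverse reads GGATTA. It was found in the windows of 4 of the 7 members, Gngt1, Cnga1, Cngb1 and Sag, and in 6.25% of the 32817 windows of the table. A further motif, TGCTGA, which resembles part of the site of the rod factor Nrl and reads TCAGCA in reverse, was found in Pde6b and Sag and in 16.1% of all windows. In Sag, which held both, they lay 87 and 187 bases before the start and did not overlap. A match is a description of letters and not a binding site. The 4 windows with TAATCC are printed 5′ to 3′ on the strand of the gene, because they are the member windows that hold this motif. The signals of these genes spread over the arrays by different amounts, by 1.15 for Gngt1, 1.23 for Cnga1, 0.258 for Cngb1 and 0.179 for Sag. Capitals mark the motif or its reverse.

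Gngt1, chr6:3993758-3994007, + strand: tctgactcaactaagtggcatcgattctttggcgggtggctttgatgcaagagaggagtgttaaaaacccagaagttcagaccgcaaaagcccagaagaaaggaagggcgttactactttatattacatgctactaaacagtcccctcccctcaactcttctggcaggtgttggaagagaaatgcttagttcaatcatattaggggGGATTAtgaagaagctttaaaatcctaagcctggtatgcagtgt

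Cnga1, chr5:72642753-72643002, - strand: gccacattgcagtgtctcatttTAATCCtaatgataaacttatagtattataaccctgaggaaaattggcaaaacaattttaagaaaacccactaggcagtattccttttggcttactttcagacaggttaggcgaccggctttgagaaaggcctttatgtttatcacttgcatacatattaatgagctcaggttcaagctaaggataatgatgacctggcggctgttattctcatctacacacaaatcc

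Cngb1, chr8:95306586-95306835, - strand: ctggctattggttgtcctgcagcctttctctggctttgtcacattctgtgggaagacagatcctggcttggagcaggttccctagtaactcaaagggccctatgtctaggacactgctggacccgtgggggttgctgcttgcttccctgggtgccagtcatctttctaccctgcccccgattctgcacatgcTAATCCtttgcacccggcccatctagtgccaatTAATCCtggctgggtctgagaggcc

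Sag, chr1:87803430-87803679, + strand: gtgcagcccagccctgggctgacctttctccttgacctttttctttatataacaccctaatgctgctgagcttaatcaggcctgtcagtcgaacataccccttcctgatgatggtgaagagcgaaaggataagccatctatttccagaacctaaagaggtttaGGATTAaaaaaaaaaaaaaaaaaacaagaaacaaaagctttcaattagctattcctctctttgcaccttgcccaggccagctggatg

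The motif began 44 bases before the start in Gngt1, on the opposite strand, and 87 bases before it in Sag, also on the opposite strand. Cngb1 held it at 58 and at 25 bases, and Cnga1 at 228 bases, each on the strand of the gene.

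None of the 10 rod genes differed between the genotypes at an adjusted threshold of 0.05, and 8 of them lay within a narrow band around no change. These 8 changes ran from -0.06 for Cngb1 to 0.12 for Pde6g. The other members, Gngt1 at 0.58 and Cnga1 at 0.49, had larger values that came with wide spread between arrays of the same genotype. With limma, 0 of 10 members were called, as were 0% of all 75632 clusters (lowest adjusted p = 0.539). The members again gave 0 at an unadjusted p under 0.05, against 1.6% of all gene rows, and 4.53% of gene rows where limma was run on 1 row per gene with a variance trend. The count of members above 0 was 7 and below 0 was 3, with a median of 0.05 where the median of all gene rows was -0.01.

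**Figure D1:**
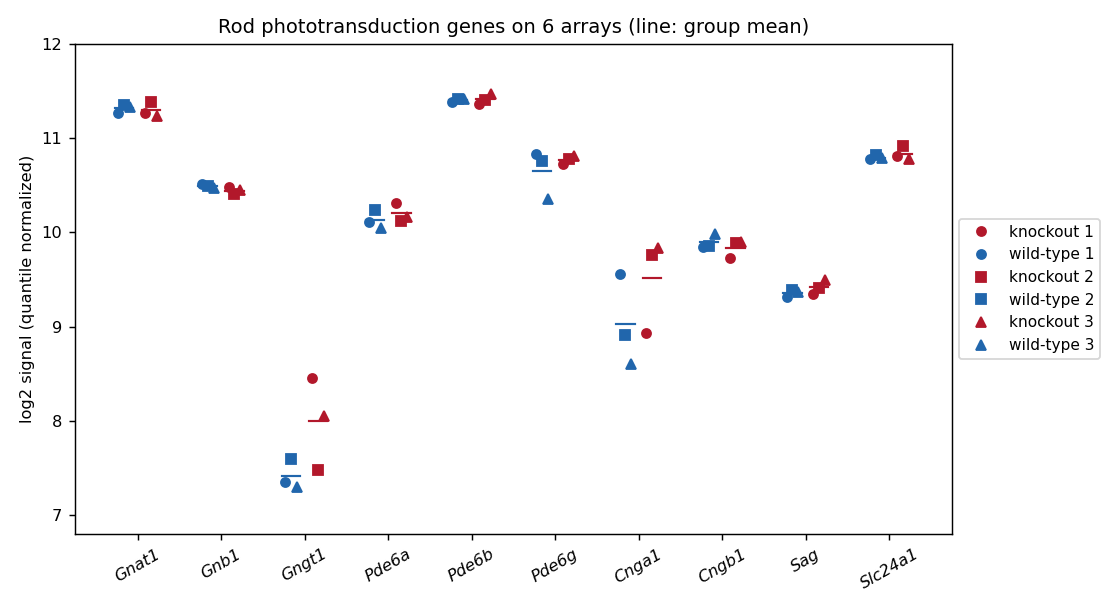
Log2 signal of each rod phototransduction gene on the 6 arrays, with wild-type in blue and knockout in red, the sample number as the symbol and a line at each group mean. The wild-type and knockout points of 8 genes sit close together, whereas those of Gngt1 and Cnga1 spread over 1.15 and 1.23 log2 units.

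Transducin couples the activated photopigment to the phosphodiesterase, and its 3 subunits behaved differently between arrays. Gnat1 (cluster tc6998645), the rod alpha subunit, had signals of 11.27, 11.38 and 11.24 across knockout 1 to 3 and of 11.27, 11.35 and 11.33 across wild-type 1 to 3. The groups overlapped throughout, and the change was -0.02 (SE 0.09, 95% interval -0.25 to 0.21; limma adjusted p = 0.989). Gnb1 (cluster tc6919152), the beta subunit, which is also made in many other cells, had 10.48, 10.41 and 10.44 on the knockout arrays and 10.52, 10.49 and 10.47 on the wild-type arrays. Knockout 1 lay just above wild-type 3, so the groups overlapped here as well, with a change of -0.05 (SE 0.09, interval -0.26 to 0.16; limma adjusted p = 0.965).

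Gngt1 (cluster tc6943796), the rod gamma subunit, which anchors the complex to the disc membrane, had 8.45, 7.47 and 8.05 across knockout 1 to 3 and 7.35, 7.60 and 7.30 across wild-type 1 to 3. Knockout 1 and knockout 3 lay above all wild-type arrays, and knockout 2 lay below wild-type 2. The change of 0.58 (SE 0.26) had an interval from -0.06 to 1.22, and it did not pass (limma unadjusted p = 0.0686, adjusted p = 0.787). Without knockout 2 it was 0.84 (limma unadjusted p = 0.00638), and without knockout 1 it was 0.35 (limma unadjusted p = 0.170). Its residual SD was at percentile 96.7 of all gene rows, whereas that of Gnb1 was at percentile 5.73.

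The phosphodiesterase consists of catalytic subunits and an inhibitory subunit, and all of its rod genes differed by less than the spread between arrays. Pde6a (cluster tc6861376), a catalytic subunit, had 10.31, 10.12 and 10.16 on the knockout arrays and 10.11, 10.24 and 10.05 on the wild-type arrays. Its highest array was knockout 1 and its lowest wild-type 3, and the change was 0.07 (SE 0.11, interval -0.19 to 0.33; limma adjusted p = 0.962). Without both of these arrays, which stood apart, it was -0.03. Pde6b (cluster tc6933319), the partner catalytic subunit, had 11.37, 11.41 and 11.47 on the knockout arrays and 11.38, 11.42 and 11.41 on the wild-type arrays. This was the smallest change among the 10 members, at 0.01 (SE 0.09, interval -0.21 to 0.23; limma adjusted p = 0.997).

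Pde6g (cluster tc6792768), the inhibitory subunit, had 10.72, 10.78 and 10.81 on the knockout arrays and 10.83, 10.76 and 10.36 on the wild-type arrays. The low value of wild-type 3 set the difference of 0.12 (SE 0.15, interval -0.24 to 0.49; limma adjusted p = 0.951), which was -0.02 without that array.

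The cyclic GMP-gated channel joins the subunits encoded by Cnga1 and Cngb1, and these did not vary in parallel. Cnga1 (cluster tc6927456), the pore-forming subunit of rods, had 8.94, 9.76 and 9.83 across knockout 1 to 3 and 9.56, 8.91 and 8.61 across wild-type 1 to 3. Both genotypes held high and low arrays, with SDs of 0.50 in knockout and 0.49 in wild-type. The change of 0.49 (SE 0.34) had an interval from -0.35 to 1.33 (limma adjusted p = 0.893). It ranged from 0.28 without wild-type 3 to 0.77 without knockout 1, and its residual SD was at percentile 98.8 of all gene rows. Cngb1 (cluster tc6984513), the modulatory subunit, had 9.73, 9.88 and 9.89 on the knockout arrays and 9.84, 9.85 and 9.99 on the wild-type arrays. Knockout 1 was its lowest and wild-type 3 its highest array, and the change was -0.06 (SE 0.10, interval -0.31 to 0.19; limma adjusted p = 0.965). Without knockout 1 and wild-type 3 together it was 0.04.

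The remaining members end the response or move calcium. Sag (cluster tc6751347), the rod arrestin, had 9.35, 9.41 and 9.49 on the knockout arrays and 9.32, 9.39 and 9.37 on the wild-type arrays. The change was 0.06 (SE 0.09, interval -0.17 to 0.29; limma adjusted p = 0.962), and the groups overlapped. After median centring in place of quantile normalization its groups no longer overlapped, with knockout values of 9.41, 9.43 and 9.47 above wild-type values of 9.32, 9.36 and 9.34. Of all gene rows, 2.44% lay above in this way after median centring. Slc24a1 (cluster tc6996308), the rod sodium, calcium and potassium exchanger, had 10.81, 10.92 and 10.78 on the knockout arrays and 10.78, 10.82 and 10.79 on the wild-type arrays. Its change was 0.04 (SE 0.09, interval -0.18 to 0.27; limma adjusted p = 0.972).

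After quantile normalization no member had all knockout arrays on one side of all wild-type arrays, where 12.9% of all gene rows had groups that did not overlap. Among those gene rows 86.9% were lower in knockout after quantile normalization, but 44.9% with the values as deposited and 68.7% after median centring, so this balance depends on the scaling. Among gene rows with an unadjusted p under 0.05, the share lower in knockout was 65.9%, 52.4% and 57.7% under the same 3 scalings. The 95% intervals of the 8 members other than Gngt1 and Cnga1 together covered ratios of knockout to wild-type from 0.806 to 1.40. These 8 were set apart after their values were seen, and the range is a description. In the main fit the SEs of these 8 lay between 0.087 and 0.149. That fit draws each SE toward a variance shared by all kept clusters. The median residual SD was 0.247 over clusters and 0.099 over gene rows. When 1 row per gene was fitted with a variance trend, the SEs of these 8 lay between 0.041 and 0.125 and their intervals between -0.22 and 0.43 on the log2 scale. In that limma fit Gngt1 had the smallest unadjusted p among the members, 0.0544.

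The members did not vary together from array to array. Over the 45 pairs of members the median Pearson correlation across the 6 arrays was -0.03, and 21 pairs were above 0. The highest value was 0.90, between Pde6b and Sag, and the lowest was -0.87, between Pde6a and Cngb1. Gngt1 and Pde6a had 0.83, and Pde6g and Cnga1 had 0.74. All points share the same 6 arrays and their normalization, and n is 6 for each value. Relative to the wild-type mean of each gene, the median of the 10 members was -0.01, 0.06 and 0.05 across knockout 1 to 3 and -0.02, 0.03 and -0.02 across wild-type 1 to 3. The genes whose profile was most like the median profile of the members over the 6 arrays were Slc25a35 with a correlation of 0.99, Dstyk with 0.98, and Rnaseh2c, 1810046K07Rik and Tub with 0.96, 0.96 and 0.95. Among all other genes, 23 exceeded 0.9 on this measure.

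Cones carry their own version of each step, and the changes of these 9 counterparts lay mostly below 0. Pde6c, the cone catalytic phosphodiesterase subunit, had 8.00, 8.03 and 7.76 on the knockout arrays and 9.19, 9.05 and 8.80 on the wild-type arrays, a change of -1.08 (SE 0.14; limma unadjusted p = 0.000331, adjusted p = 0.539). Arr3, the cone arrestin, had 6.35, 6.21 and 5.99 on the knockout arrays and 6.75, 6.74 and 6.57 on the wild-type arrays, a change of -0.51 (SE 0.13; limma adjusted p = 0.621). In both genes each knockout value was below each wild-type value, as in Cnga3, the cone channel subunit, at -0.25, and in Gngt2, the cone gamma subunit, at -0.20. Of all gene rows, 11.2% had knockout arrays that all lay below, but 3.75% with the values as deposited and 5.35% after median centring. The count among the 9 counterparts was 4 and 3 under those scalings, since the groups of Gngt2 overlapped after median centring. The other counterparts stood at -0.25 for the exchanger Slc24a2, -0.18 for the alpha subunit Gnat2, -0.04 for the inhibitory subunit Pde6h, -0.01 for the beta subunit Gnb3 and 0.12 for the channel subunit Cngb3. The wild-type means of Pde6h and Cnga3 were both 5.55, near the array medians of 4.97 to 5.07 in the deposited values, and that of Gnb3 was 11.43. Gnb3 and Cngb3 changed sign with an array left out. Gnat2 stood at -0.12 without wild-type 1, Gngt2 at -0.13 without wild-type 2 and Pde6h between -0.07 and -0.02 with each array left out.

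**Figure D2:**
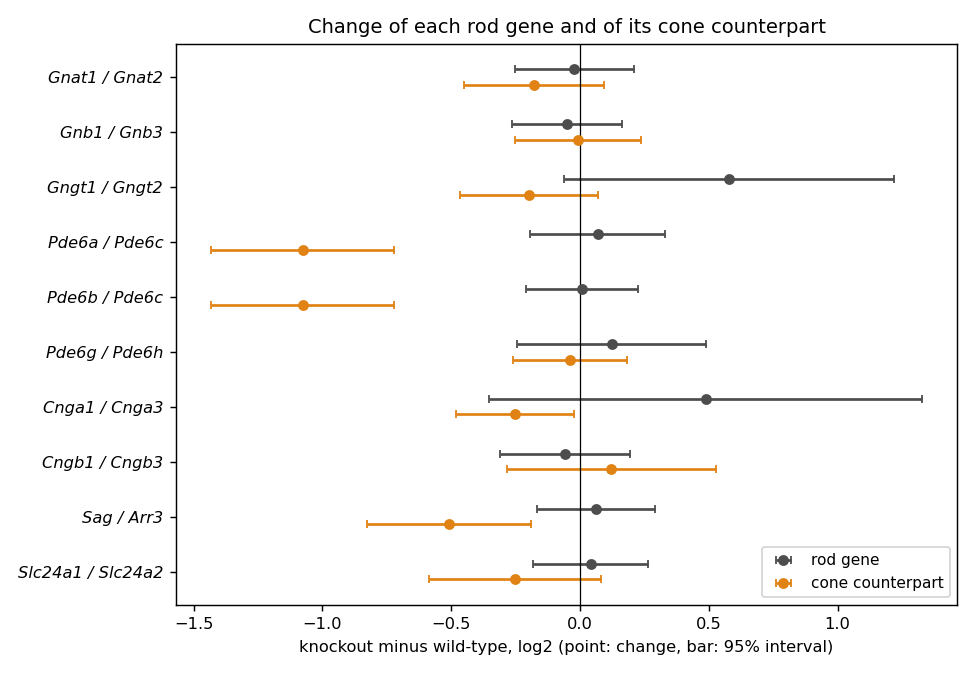
Change of each rod gene (grey) and of its cone counterpart (orange), knockout less wild-type in log2 units, with 95% intervals from limma as bars. The intervals of Pde6c, Arr3 and Cnga3 lie below 0, and the intervals of all 10 rod genes include 0.

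Whether a rod gene and its counterpart differed in their change was tested directly, on the log2 difference of the 2 genes on each array. The rod change was above the cone change in 8 of the 10 pairs, and the median of the 10 differences was 0.43. An exact permutation test over arrays cannot give a two-sided p below 0.1 with 3 against 3, and after adjustment over the 10 pairs no value could reach 0.05. In 4 pairs all knockout arrays lay above all wild-type arrays, and in 0 pairs all lay below. Among the differences formed between these members and every gene that is no member, 8.9% lay above in this way and 1.83% below.

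The catalytic subunits gave the largest contrast. Pde6a minus Pde6c, relative to its wild-type mean, was 1.19, 0.97 and 1.28 across knockout 1 to 3 and -0.20, 0.07 and 0.13 in wild-type, a difference of changes of 1.14 (2.21-fold; exact p = 0.1, adjusted p = 0.25). Pde6b minus Pde6c stood at 0.96, 0.98 and 1.31 for the knockout and at -0.20, -0.03 and 0.22 for the wild-type arrays, a difference of 1.09 (2.12-fold; exact p = 0.1, adjusted p = 0.25). These pairs share Pde6c and are not independent of each other.

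In the arrestin pair, Sag minus Arr3 was 0.34, 0.54 and 0.84 for the knockout and -0.10, -0.02 and 0.13 for the wild-type arrays, a difference of 0.57 (1.49-fold; exact p = 0.1, adjusted p = 0.25). The gamma subunits gave 0.78 for Gngt1 minus Gngt2 (exact p = 0.1, adjusted p = 0.25), with knockout 2 at 0.28 above the highest wild-type value of 0.04. In the remaining 6 pairs the groups overlapped. Cnga1 minus Cnga3 stood at 0.74 and Slc24a1 minus Slc24a2 at 0.29, both with exact p = 0.2. Gnat1 minus Gnat2 stood at 0.16 (exact p = 0.2; 0.07 without wild-type 1), and Pde6g minus Pde6h at 0.16 (exact p = 0.6; -0.0046 without wild-type 3). The beta subunits and the modulatory channel subunits had the opposite sign, at -0.04 for Gnb1 minus Gnb3 and -0.18 for Cngb1 minus Cngb3 (exact p = 0.6 for both). Without knockout 1 the groups did not overlap in 7 pairs, and Cngb1 minus Cngb3 turned to 0.03. The count was 6 without wild-type 3, 5 without wild-type 1 and 4 without each of the other arrays. Fewer arrays make such separation easier, and the share of 8.9% given above is for 3 arrays against 3.

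**Figure D3:**
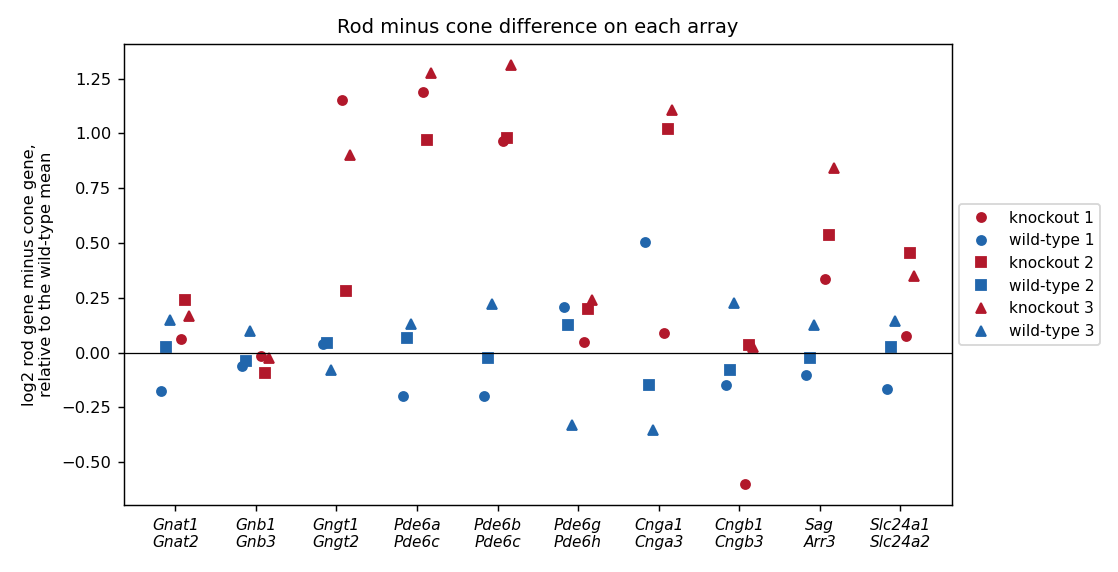
Log2 signal of the rod gene minus that of its cone counterpart on each array, shown relative to the wild-type mean of that pair, with wild-type in blue, knockout in red and the sample number as the symbol. Red points lie above all blue points in the Gngt1, Pde6a, Pde6b and Sag pairs and overlap with them in the other 6.

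Marker lists for the cell types of the retina were read beside these contrasts, and no marker passed in limma. The cone list shares 7 of its 9 genes with the counterparts above, so it is not separate evidence. Its median change was -0.24, with 8 of 9 genes below 0. In 5 of 9 each knockout value was under each wild-type value (5 as deposited, 4 after median centring), beside the 11.2%, 3.75% and 5.35% of all gene rows given above. The summed linear signal of the list was 998.5 to 1242 in knockout and 1808 to 3026 in wild-type explants, and Opn1sw, the short-wavelength cone photopigment gene, weighed heavily on it. That gene, named after its value was seen, stood at -2.35 (SE 0.37; limma adjusted p = 0.539). Without it the sum was 849.8 to 1017 in knockout and 1137 to 1362 in wild-type, and the median was -0.22.

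Of the 5 rod markers, 4 were measured, with a median change of -0.05 and a summed linear signal of 9137 to 9787 in knockout and 9063 to 9560 in wild-type. All knockout arrays lay below in 2 of these 4, Nrl and Esrrb, against the same 11.2% of gene rows. With the values as deposited only Esrrb did so, against 3.75%, and Rom1 lay above, against 4.60%. After median centring Nrl and Esrrb again both lay below, against 5.35%. Horizontal cell markers were below 0 in 6 of 6 genes, with a median of -0.24, a summed signal of 4650 to 5068 in knockout and 5421 to 5744 in wild-type, and groups that did not overlap in 3 genes (2 after median centring). Microglia markers were below 0 in 5 of 5 genes with a median of -0.19, and ganglion cell markers in 4 of 4 with a median of -0.15. The measured pigment epithelium and lens markers were also below 0 in 4 of 4, each with a median of -0.08. Bipolar markers were below 0 in 2 of 5 genes, progenitor markers in 2 of 5 and amacrine markers in 3 of 6. Muller glia markers were below 0 in 2 of 4 and endothelial markers in 3 of 4. Of all 17468 gene rows, 9555 were below 0. The part of cell numbers in the difference between rod and cone genes was not tested.

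Genes that shut off, assemble, regulate or house the cascade were examined as 4 further lists. Of 34 measured genes in these lists, 0 passed in limma over all clusters, and 3 had an unadjusted p under 0.05, of which 1 was higher and 2 were lower in knockout, where 0.544% of all gene rows were higher and 1.05% lower at that threshold. List medians were 0.05 for recovery and calcium feedback (9 of 9 genes measured), 0.05 for assembly and transport (7 of 8), -0.03 for rod regulators (9 of 10) and 0.03 for outer segment structure (9 of 10), against -0.01 for all gene rows.

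**Figure D4:**
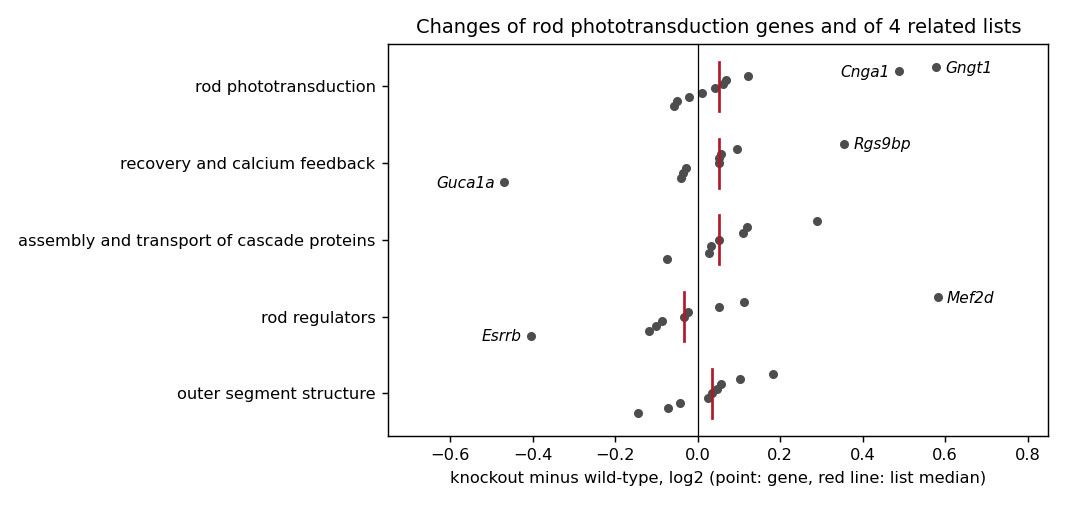
Change of each gene, knockout less wild-type in log2 units, for the rod phototransduction genes and 4 related lists, with genes beyond 0.3 in either direction named and list medians as red lines. Most points of every list lie close to 0, and the named genes are Gngt1, Cnga1, Rgs9bp, Guca1a, Mef2d and Esrrb.

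Recovery from light needs the shut-off of each activated step and the resynthesis of cyclic GMP. Guca1a, a calcium sensor that activates guanylate cyclase in rods and cones, had 6.09, 5.82 and 5.82 on the knockout arrays and 6.33, 6.37 and 6.44 on the wild-type arrays. All knockout arrays lay below, with a change of -0.47 (SE 0.12; limma unadjusted p = 0.00702, adjusted p = 0.608). Of all gene rows 11.2% lay below in this way. This was 3.75% with the values as deposited and 5.35% after median centring, where Guca1a again lay below. Rgs9bp, the membrane anchor of the complex that switches transducin off, stood at 0.36 (SE 0.20) and at 0.14 without wild-type 3, its lowest array at 9.48. Grk1, the kinase of the photopigment, stood at 0.09 and Gnb5, a subunit of the shut-off complex, at 0.05, and without wild-type 3 they stood at 0.05 and 0.01. For Grk1 and Rgs9bp all knockout arrays lay above all wild-type arrays, as they did in 1.7% of all gene rows. This share was 4.60% with the values as deposited and 2.44% after median centring, where both genes again did not overlap. Gnb5 lay above in this way after median centring alone.

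Assembly and transport genes with the lowest p were Rp2 at 0.29, Pde6d at 0.12, Aipl1 at 0.11 and Arl3 at -0.07, all with overlapping groups. Aipl1, a chaperone needed for the phosphodiesterase, and Pde6d, a carrier of lipid-modified proteins, had their lowest signal in wild-type 3, as Pde6g had. Without that array Aipl1 stood at -0.03 and Pde6d at -0.00, and Rp2, which acts on Arl3, at 0.08, and Arl3 at -0.03.

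Among rod regulators, Esrrb, an orphan nuclear receptor of rods, had 6.91, 6.81 and 6.77 on the knockout arrays and 7.28, 7.27 and 7.17 on the wild-type arrays. Its change was -0.41 (SE 0.09; limma unadjusted p = 0.00551, adjusted p = 0.606). Mef2d, a transcription factor that works with Crx in photoreceptors and is made in other cells too, had 10.60, 10.33 and 10.90 on the knockout arrays and 10.11, 10.16 and 9.82 on the wild-type arrays, a change of 0.58 (SE 0.18; limma adjusted p = 0.678). Nrl, the factor that sets the rod fate, stood at -0.10 (SE 0.09) and Otx2, which directs photoreceptor precursors, at -0.09 (SE 0.09). Nrl stood at -0.07 without wild-type 3. All knockout arrays of Nrl and Otx2 lay below the wild-type arrays, but the groups overlapped for Nrl with the values as deposited and for Otx2 after median centring. Those of Esrrb lay below, and those of Mef2d above, under all 3 scalings. Of all gene rows 11.2% lay below in this way, 3.75% as deposited and 5.35% after median centring. The shares above were 1.7%, 4.60% and 2.44%.

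Changes of outer segment genes ran from -0.15 to 0.18. Abca4, a transporter of retinoids in the discs, stood at -0.15 (SE 0.09), Rp1, a protein of the photoreceptor axoneme, at 0.18 (0.07 without wild-type 3), Impg2, of the matrix between photoreceptors, at 0.10 (0.05 without wild-type 3) and Rp1l1 at -0.07 (-0.02 without knockout 1). All knockout values of Abca4 were below, and all of Impg2 above, the wild-type values under all 3 scalings. Over all gene rows the shares below were 11.2%, 3.75% as deposited and 5.35% after median centring, and above 1.7%, 4.60% and 2.44%. Cdhr1 also lay below after quantile normalization alone, and Rom1, Rp1 and Impg1 lay above only with the values as deposited. None of Abca4, Rp1, Impg2 and Rp1l1 passed (limma adjusted p between 0.873 and 0.960).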

How the data were processed

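Expression was measured on 6 Affymetrix arrays, and the deposited table lists 100843 transcript clusters. The values deposited by the authors are log2, as judged by the span of 1.48 to 13.86. Affymetrix Expression Console, PLIER (which summarises the probes of a cluster) and genome build mm8 appear, per the submitters' processing notes, without versions or roles. For background correction and for normalization between arrays, the method is not given in the sources used here, and no detection value came with the table, so a background signal would make fold changes smaller.

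The array medians spanned 0.103, and values were quantile normalized. Clusters were kept where their mean reached the 25th percentile (3.70), which left 75632. Of all clusters 22608 had 1 gene symbol, updated through gene identifiers where possible (22101), and 1462 had several and were not used. A gene was represented by its brightest kept cluster, giving 17468 genes.

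Genotypes were compared in limma 3.58.1 under R 4.3.3, by moderated two-sided tests (lmFit, eBayes). The p-values were adjusted across every kept cluster by the Benjamini-Hochberg method, and 0.05 was the threshold. The fit was tested on simulated data. Rod and cone pairs were compared by exact permutation, adjusted over 10 pairs. The members and lists were chosen with earlier results of these data known. Named were all members, their cone counterparts, up to 4 genes of each related list with the smallest p, and the 5 genes most like the members. Sample numbers in the titles were not taken to pair the samples. Other settings tried were other scalings, filters, variance models and array weights, the replicate block, 1 row per gene, the mean of a gene's clusters, a looser threshold and each array left out. Leaving out knockout 1 and wild-type 3 together was chosen after seeing the data. Figures used matplotlib 3.10.9 in Python 3.11.15.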

Additional observations from a re-analysis of the deposited data

How the results depend on the processing

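No cluster passed an adjusted p of 0.05 in limma under any of the 19 alternatives run, and none passed 0.1 in the main setting. The smallest adjusted p ran from 0.0818, without wild-type 3, to 0.797, and 6.57% of clusters had an unadjusted p under 0.05 in the main setting. No member was called in any of them. The count of members at an unadjusted p under 0.05 was 0 except without knockout 2, where Gngt1 made it 1 (0 to 1 with each array left out). The members' median change was 0.02 to 0.06 with each array left out, 0.08 with the values as deposited and after median centring, and 6 to 8 members stood above 0 in all settings. Values near 0 changed sign: Gnat1 to 0.0045 as deposited and 0.0061 after median centring (-0.064 to 0.0075 with each array left out), Pde6b (-0.019 to 0.035), Pde6g (-0.022 to 0.21), and without knockout 1 and wild-type 3 Pde6a to -0.030 and Cngb1 to 0.041. The number of pairs whose groups did not overlap, 4 in the main setting, was 4 to 7 with each array left out and 8 without knockout 1 and wild-type 3, where fewer arrays make such separation easier. In that setting Cngb1 minus Cngb3 turned to 0.14, and with each array left out it ran from -0.29 to 0.031, Gnb1 minus Gnb3 from -0.074 to 0.0058 and Pde6g minus Pde6h from -0.0046 to 0.27, and Gnat1 minus Gnat2 from 0.070 to 0.230. With the replicate block 0 members were called and the median stayed at 0.05, with Gngt1 at limma unadjusted p = 0.103. Sample numbers were not used as pairs. The correlation of deviations from the group means was 0.13 for the arrays numbered 1, -0.15 for those numbered 2 and 0.21 for those numbered 3. For arrays of unlike numbers it ran from -0.28 (knockout 1 with wild-type 3) to 0.23 (knockout 1 with wild-type 2), a range that includes these values. The number of arrays limits all of these values.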
